A study of Homo sapiens with 10 samples.

Results

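The glucocorticoid receptor gene NR3C1 and 9 genes known as its direct targets were examined in the transcriptomes of the human endothelial lines EA.hy926 and HMEC-1. The 10 genes (NR3C1, FKBP5, ZBTB16, PER1, KLF9, TSC22D3, DUSP1, SGK1, ERRFI1 and MAOA) were a list of known targets matched by symbol to the 60448 genes of the count table. No measured value entered the rule, but the list was drawn up with earlier results of these data known. All 10 were among the 16310 genes that passed the filter on low counts and were tested. EA.hy926 came from fusing umbilical vein endothelium with A549 lung carcinoma cells, and HMEC-1 from dermal microvascular endothelium immortalized by SV40 large T antigen, so each group is 1 established line and not a set of donors. Poly(A) RNA of untreated confluent cells labelled WT was sequenced in 5 independent biological replicates per line. EA.hy926 cells grew in Advanced DMEM with 5% fetal bovine serum (FBS). HMEC-1 cells grew in MCDB 131 with 10% FBS, 10 ng/mL epidermal growth factor (EGF) and 1 μg/mL hydrocortisone, and glutamine, gentamicin and penicillin were common to both media. Line, basal medium, serum, EGF and hydrocortisone therefore changed together and cannot be told apart in these libraries.

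Hydrocortisone is cortisol, the main human glucocorticoid. It crosses the membrane and binds the glucocorticoid receptor, which HSP90 and its co-chaperones hold in the cytoplasm, and the receptor then enters the nucleus and binds response elements made of a pair of inverted half-sites 3 bases apart. Genes near such elements are induced, among them feedback inhibitors of the hormone and of inflammatory kinases, while many cytokine genes are repressed. In endothelium, glucocorticoids are known for restraining inflammation and tightening cell junctions.

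Library totals ran from 34846046 to 39899324 counts for EA.hy926 and from 33391640 to 43877224 counts for HMEC-1. Levels are given as CPM (the count normalized by the library total and its TMM factor), as mean ± SD over the 5 libraries of a line. A positive log2FC is higher expression in EA.hy926, SE is its standard error, and both thresholds are met by an absolute log2FC over 1 with an adjusted p (Benjamini-Hochberg, edgeR quasi-likelihood test, all tested genes) under 0.05. The labelled endothelial identity was checked on 11 markers, of which 9 exceeded 3 counts in each EA.hy926 library, as did all 11 in HMEC-1. They summed to 4156 to 4798 CPM in EA.hy926 against 1566 to 1605 in HMEC-1, and the sum in EA.hy926 was carried mostly by CDH5 (1268 CPM on average) and PECAM1 (1633 CPM). EMCN and CLDN5 went the other way, with 0 to 2 and 0 to 5 counts per library in EA.hy926 against 678 to 844 and 51 to 65 in HMEC-1. KDR had 63.7 and 65.5 CPM on average (log2FC = -0.042 ± 0.0768 SE, edgeR adjusted p = 0.61). Of 10 epithelial markers, 4 and 5 passed the same limit, with summed levels of 1274 to 1388 and 424 to 486 CPM. Of the 5 epithelial markers that could be tested, 2 were higher in EA.hy926 and 1 in HMEC-1 past both thresholds. The shares over all tested genes were 19.1% and 16.4%. Their log2FC ran from -4.71 to 4.83, so these markers did not share 1 direction. Among those left untested, the epithelial genes CDH1 and GRHL2 had at most 1 count in any library. The 7 fibroblast markers summed to 0.937 to 1.60 CPM in EA.hy926 against 473 to 502 in HMEC-1, mostly COL1A1 (358 ± 9.29 CPM in HMEC-1), while DCN and LUM had no count in any library. Of 5 leukocyte markers, none passed the limit in EA.hy926 and 2 did in HMEC-1, with at most 1.13 CPM in sum. The part of these marker differences in the results below was not tested, and in such bulk libraries fewer cells of a type cannot be told apart from less RNA per cell.

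Of the 9 targets, 8 were higher in HMEC-1 cells and 1, TSC22D3, was higher in EA.hy926 cells past both thresholds. The receptor gene itself was nearly equal in the lines. The fold differences of the targets fell into 3 ranges. FKBP5, PER1, KLF9 and MAOA were 8.94-fold to 12.4-fold higher in HMEC-1, SGK1, DUSP1 and ERRFI1 were 2.54-fold to 3.28-fold higher, and ZBTB16 was found in HMEC-1 alone. ZBTB16 also passed the filter on low counts through that line alone. Over all tested genes, 16.4% were higher in HMEC-1 past both thresholds and 19.1% higher in EA.hy926, and 35.5% passed in either direction. At an adjusted p under 0.05 alone, all 10 genes were called, 9 of them higher in HMEC-1, where 85.8% of all tested genes were called, 43.3% higher in HMEC-1 and 42.6% higher in EA.hy926. The median log2FC was -2.44 over the 10 genes and -0.010 over all tested genes. CPM values did not overlap between the lines for 9 of the 10 genes, against 77.4% of all tested genes, so separation of the lines alone was common. The separate values were higher in HMEC-1 for 8 genes (39.2% of all tested genes) and higher in EA.hy926 for 1 (38.3%).

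**Figure D1:**
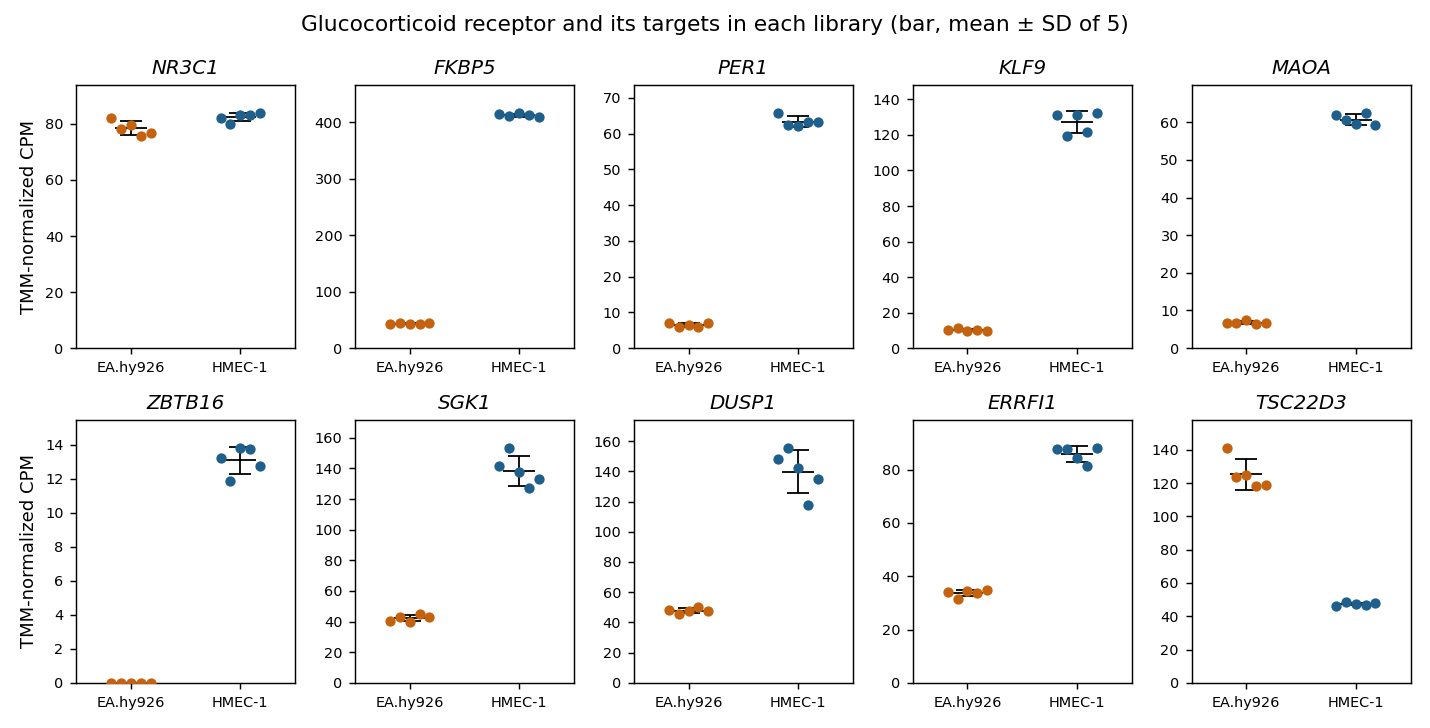
TMM-normalized CPM (vertical axis, linear from 0, scaled per gene) of the 10 genes in each of the 5 EA.hy926 (orange) and 5 HMEC-1 (blue) libraries, with bars at mean ± SD. The libraries of the lines lie apart for every gene but NR3C1, HMEC-1 is the higher line for 8 genes and EA.hy926 for TSC22D3.

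NR3C1 (ENSG00000113580, GRCh38 chromosome 5, 143277931 to 143435512, minus strand) encodes the glucocorticoid receptor. Its level was 82.2, 78.0, 79.7, 75.8 and 76.8 CPM in EA.hy926 replicates 1 to 5 and 82.3, 80.1, 83.1, 83.3 and 83.8 CPM in those of HMEC-1. The ranges overlapped, since EA.hy926 replicate 1 exceeded HMEC-1 replicate 2. The means were 78.5 ± 2.52 and 82.5 ± 1.46 CPM, a 1.05-fold difference (log2FC = -0.072 ± 0.0281 SE, edgeR adjusted p = 0.022). The call was lost without any 1 of 3 libraries. The edgeR adjusted p was 0.060 without EA.hy926 replicate 2, 0.095 without EA.hy926 replicate 4 and 0.079 without EA.hy926 replicate 5, with log2FC of -0.063, -0.053 and -0.058. By the root mean square difference in log2 CPM over the 10 libraries, the genes closest to NR3C1 were PTPN23 (0.0283), SLC39A9 (0.0300) and CUL5 (0.0395), all with an absolute log2FC of 0.073 or less.

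A related receptor gene differed far more than NR3C1. NR3C2, which encodes the mineralocorticoid receptor and binds cortisol as well, had 32.4 ± 1.85 CPM in EA.hy926 against 5.22 ± 0.379 in HMEC-1 (log2FC = 2.63 ± 0.0576 SE, edgeR adjusted p = 2.2e-20). Per kilobase of exon, NR3C1 was at 8.57 ± 0.275 CPM and NR3C2 at 4.90 ± 0.280 CPM in EA.hy926. In HMEC-1 the same quantity was 9.01 ± 0.160 CPM for NR3C1 and 0.791 ± 0.0573 CPM for NR3C2, so NR3C1 was the more abundant in both lines. The progesterone receptor gene PGR had no count in any library, and the estrogen receptor genes ESR1 and ESR2 had 1 to 29 counts per library.

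The machinery around the receptor differed little in size. Among 10 genes for receptor folding and transport, which include HSP90, HSP70 and co-chaperone genes, 5 were higher in EA.hy926 and 3 higher in HMEC-1 at an adjusted p under 0.05, and 8 had an unadjusted p under 0.05. At that adjusted p, 85.8% of all tested genes were called. None of the 10 passed the fold change threshold, whether in edgeR, in DESeq2 or in limma-voom, and their log2FC lay between -0.90 and 0.60. In edgeR, 35.5% of all tested genes passed both thresholds. FKBP4, whose product acts opposite to that of FKBP5 in the receptor complex, had 80.0 ± 2.58 CPM in EA.hy926 against 137 ± 5.49 in HMEC-1 (log2FC = -0.77 ± 0.0311 SE, edgeR adjusted p = 9.8e-16). Of 14 coregulator genes, 3 passed both thresholds, against 35.5% of all tested genes. NCOA2, a coactivator of the receptor also called GRIP1, was higher in EA.hy926 (38.0 ± 2.56 against 11.7 ± 1.08 CPM, log2FC = 1.70 ± 0.0589 SE, edgeR adjusted p = 6.9e-17). The corepressor gene NRIP1 was higher in HMEC-1 (log2FC = -1.85 ± 0.0473 SE, edgeR adjusted p = 3.2e-19), as was the chromatin remodeling ATPase gene SMARCA4 (log2FC = -1.45).

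Genes that set the amount of active cortisol in a cell were mostly near the limit of detection. HSD11B1, which regenerates cortisol from cortisone, had 3 to 9 counts in the EA.hy926 libraries and 1 to 11 in those of HMEC-1. HSD11B2, which inactivates cortisol, had 0 to 11 and 6 to 16 counts, and both genes were under the filter on low counts. A total of 3 of 9 genes in this group could be tested. The efflux pump gene ABCB1, whose product exports several steroids, was higher in EA.hy926 (22.9 ± 1.18 against 5.96 ± 0.897 CPM, log2FC = 1.94 ± 0.0745 SE, edgeR adjusted p = 4.3e-16). H6PD, which supplies the cofactor of HSD11B1, had a log2FC of 0.89, and SRD5A1 one of 0.013 (SE 0.0504, edgeR adjusted p = 0.81).

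FKBP5 (ENSG00000096060, chromosome 6, 35573585 to 35728583, minus strand) encodes the co-chaperone FKBP51, which lowers the affinity of the receptor for hormone and closes a short feedback loop. EA.hy926 replicates 1 to 5 had 42.6, 45.3, 42.9, 42.5 and 44.03 CPM, and HMEC-1 replicates 414, 410.5, 416, 412 and 409.9 CPM. Every HMEC-1 library was thus far above every EA.hy926 library, and the HMEC-1 libraries varied by a coefficient of variation of 0.623%, the lowest of the 10 genes in either line. The log2FC was -3.25 ± 0.0263 SE (edgeR adjusted p = 2.2e-27), or 9.49-fold. An intron of FKBP5 holds the one exact match to the receptor palindrome (the half-site AGAACA, any 3 bases, then TGTTCT) in any of the 10 genes. It lies at 86826 bases from the canonical start, and a second intronic match with 1 mismatch (A4T, counted from 1 at the 5′ end of the palindrome, with the base of the palindrome first) lies at 75298 bases. Both are shown on the strand of the gene, with the palindrome in capitals and its flanks in lower case.
FKBP5 chr6:35602076-35602102: acattcAGAACAGGGTGTTCTgtgctc
FKBP5 chr6:35613604-35613630: aaaccaAGATCACCTTGTTCTttttga
Close to FKBP5 by the same measure of likeness were the basement membrane collagen genes COL4A1 (0.230) and COL4A2 (0.305), with log2FC of -3.0 and -3.80.

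PER1 (ENSG00000179094, chromosome 17, 8140472 to 8156506, minus strand) encodes a repressor of the circadian clock and is one of the fastest genes to respond to glucocorticoids. It had 6.93, 5.84, 6.41, 5.83 and 7.11 CPM in EA.hy926 and 65.8, 62.3, 62.0, 63.4 and 63.4 CPM in HMEC-1. The lowest HMEC-1 library was well above the highest EA.hy926 library. The log2FC was -3.30 ± 0.0484 SE (edgeR adjusted p = 2.3e-23), a 9.85-fold difference. At -2063 bases from its canonical start, in an intron of transcripts that begin further upstream, lies a match to the palindrome with 1 mismatch (T15C). PER1 was the only one of the 10 genes with a match within 5 kb of the start.
PER1 chr17:8154454-8154480: gccaagAGAACATGATGTTCCcaagtg

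KLF9 (ENSG00000119138, chromosome 9, 70384604 to 70414657, minus strand), a zinc finger transcription factor gene that takes part in feedforward regulation by glucocorticoids, had the largest fold difference among the genes found in both lines. Its levels were 10.3, 11.3, 9.82, 10.4 and 9.70 CPM in EA.hy926 against 131, 119.6, 131, 122 and 132 in HMEC-1 (log2FC = -3.63 ± 0.0437 SE, edgeR adjusted p = 8.5e-25), or 12.4-fold. MAOA (ENSG00000189221, chromosome X, 43654907 to 43746817, plus strand), which encodes the monoamine oxidase that degrades serotonin and noradrenaline, ranged from 6.51 to 7.57 CPM in EA.hy926 and from 59.1 to 62.4 CPM in HMEC-1. Its log2FC was -3.16 ± 0.0439 SE (edgeR adjusted p = 9.2e-24). MAOB, the neighbouring paralog, had no count in any library. No match to the palindrome with up to 1 mismatch was found in KLF9 or within 50 kb of its start, while MAOA has 1 in an intron, at 76511 bases from the start (A4G).
MAOA chrX:43732797-43732823: taggttAGAGCAGGGTGTTCTgcattt

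ZBTB16 (ENSG00000109906, chromosome 11, 114059041 to 114256765, plus strand) encodes the transcriptional repressor PLZF, which is strongly induced by glucocorticoids and progestins in many tissues. It had 0 counts in all 5 EA.hy926 libraries and 464, 484, 637, 561 and 487 counts in the HMEC-1 libraries, a level of 13.1 ± 0.810 CPM. Taking 3 counts, at most 0.0904 CPM in an EA.hy926 library, as the smallest detectable amount, ZBTB16 was at least 145-fold higher in HMEC-1. It passed the filter on low counts through HMEC-1 alone, so its direction was settled before the test (edgeR adjusted p = 5.2e-18). The floor covers counting error only, as the reads carry no molecular identifiers. Although its difference was the largest, ZBTB16 was the least abundant of the 10 genes per exon length in HMEC-1, at 0.790 ± 0.0489 CPM per kilobase. Its single match to the palindrome (A4G) is intronic, at 160462 bases from the start.
ZBTB16 chr11:114220160-114220186: gataggAGAGCACATTGTTCTctgggc

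SGK1, DUSP1 and ERRFI1 answer to several stimuli besides glucocorticoids, among them serum and growth factors. Serum and EGF differed between the media for all 10 genes alike, and their part in the level of any of the 10 was not tested. SGK1 (ENSG00000118515, chromosome 6, 134169248 to 134318112, minus strand), a kinase gene that raises sodium transport, had 40.4, 43.0, 40.0, 44.7 and 42.9 CPM in EA.hy926 against 141, 153, 137, 127 and 133 in HMEC-1 (log2FC = -1.71 ± 0.0434 SE, edgeR adjusted p = 2.6e-19). DUSP1 (ENSG00000120129, chromosome 5, 172768096 to 172771195, minus strand), whose product dephosphorylates p38 and JNK and limits inflammation, had 48.5, 45.5, 47.7, 50.0 and 47.6 CPM in EA.hy926 and 148, 156, 142, 118 and 135 CPM in HMEC-1. The lines were separate for both genes, but the spread within HMEC-1 was wider than for any other target, with coefficients of variation of 7.05% for SGK1 and 10.3% for DUSP1. The log2FC of DUSP1 was -1.55 ± 0.0538 SE (edgeR adjusted p = 7.4e-17). ERRFI1 (ENSG00000116285, chromosome 1, 8004404 to 8026309, minus strand), which encodes the EGF receptor inhibitor MIG6, ranged from 31.6 to 34.8 CPM in EA.hy926 and from 81.4 to 88.2 in HMEC-1 (log2FC = -1.35 ± 0.0335 SE, edgeR adjusted p = 2.0e-19).

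The order of the HMEC-1 libraries was alike for several of these genes. HMEC-1 replicate 4 was the lowest library for SGK1, DUSP1 and ERRFI1, and replicate 2 was the highest for SGK1 and DUSP1. The immediate early gene EGR1 had 46.8, 59.5, 43.7, 16.4 and 48.5 CPM in the same HMEC-1 libraries and 0.512 to 1.26 CPM in EA.hy926. FOS had 2.22, 3.16, 2.04, 1.20 and 2.12 CPM in HMEC-1, again with replicate 2 highest and replicate 4 lowest. Without HMEC-1 replicate 4, SGK1, DUSP1 and ERRFI1 stayed past both thresholds, and when libraries were dropped singly the log2FC of DUSP1 ran from -1.61 to -1.52. The part of immediate early activity in the levels of these 3 targets was not tested.

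DUSP1 has the octamer TGACGTCA, the palindromic cyclic AMP response element, in its promoter at -125 bases, which is present in 1.85% of the 35116 RefSeq promoters of 300 bases (250 before to 50 after the start). It was found in none of the promoters of the other 9 genes. The element is shown in capitals on the strand of the gene. Matches to the receptor palindrome with 1 mismatch lie further upstream of DUSP1, at -10433 (G11A) and -30927 bases (G2A), and beyond the end of ERRFI1, at 36618 bases from its start (T13C). SGK1 has none within its 149 kb or within 50 kb of its start.
DUSP1 promoter chr5:172771304-172771329: cagggcgggTGACGTCAccgccccgt
DUSP1 upstream chr5:172781615-172781641: ctcttaAGAACAAGATATTCTtctagg
ERRFI1 downstream chr1:7989678-7989704: tgcaggAGAACATGATGTCCTcctcat

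TSC22D3 (ENSG00000157514, chromosome X, 107713221 to 107777342, minus strand) encodes GILZ, the glucocorticoid-induced leucine zipper, which inhibits NF-κB and AP-1. It went the other way from the remaining targets. EA.hy926 replicates had 141, 124, 125, 118 and 119 CPM, and HMEC-1 replicates 46.4, 48.4, 47.1, 46.8 and 48.1 CPM. Every EA.hy926 library was above every HMEC-1 library, and EA.hy926 replicate 1 was the highest. The log2FC was 1.40 ± 0.0402 SE (edgeR adjusted p = 2.3e-18), or 2.64-fold higher in EA.hy926, and ran from 1.36 to 1.43 when libraries were dropped singly. Scaled by library totals alone it was 1.27. Counts per gene sum over transcripts that begin at different starts, so it cannot be said from them which form of GILZ differed. The paralog TSC22D4 had a log2FC of 0.84, TSC22D1 one of 0.19 and TSC22D2 one of -0.24. TSC22D3 had the most matches to the palindrome of the 10 genes, 3 in introns and 1 at -18084 bases, each with 1 mismatch. The intronic match nearest to the start lies at 7936 bases (T13G).
TSC22D3 intron chrX:107767838-107767864: tggcccAGAACATACTGTGCTgtccca
TSC22D3 upstream chrX:107793858-107793884: cttttaATAACAGCATGTTCTtggaaa

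Matches to the palindrome, searched as AGAACA, any 3 bases and TGTTCT with at most 1 mismatch in its 12 fixed bases (it reads the same on both strands), were thus found inside 5 of the 10 genes, FKBP5, MAOA, PER1, TSC22D3 and ZBTB16. Such a match lies inside 19.7% of the tested genes, and an exact one inside 1.26%. The rates were 0.903 matches per 100 kb in the 886 kb of the 10 genes and 0.515 per 100 kb in all tested genes. Within 50 kb of the canonical start, 4 of the 10 genes and 34.3% of the tested genes had a match. Among the tested genes with a match within 5 kb, 16.8% were higher in HMEC-1 past both thresholds, beside 16.3% of all tested genes with an annotated start, and 18.5% against 19.0% were higher in EA.hy926. A match is a description of the letters and not evidence of binding. The half-site alone (AGAACA or TGTTCT) was searched in the RefSeq promoters only. It was found in 2 of the 21 promoters of the 10 genes, those being of FKBP5 and SGK1, and in 14.8% of all 35116 promoters. Other looser forms of the element were not searched.

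**Figure D2:**
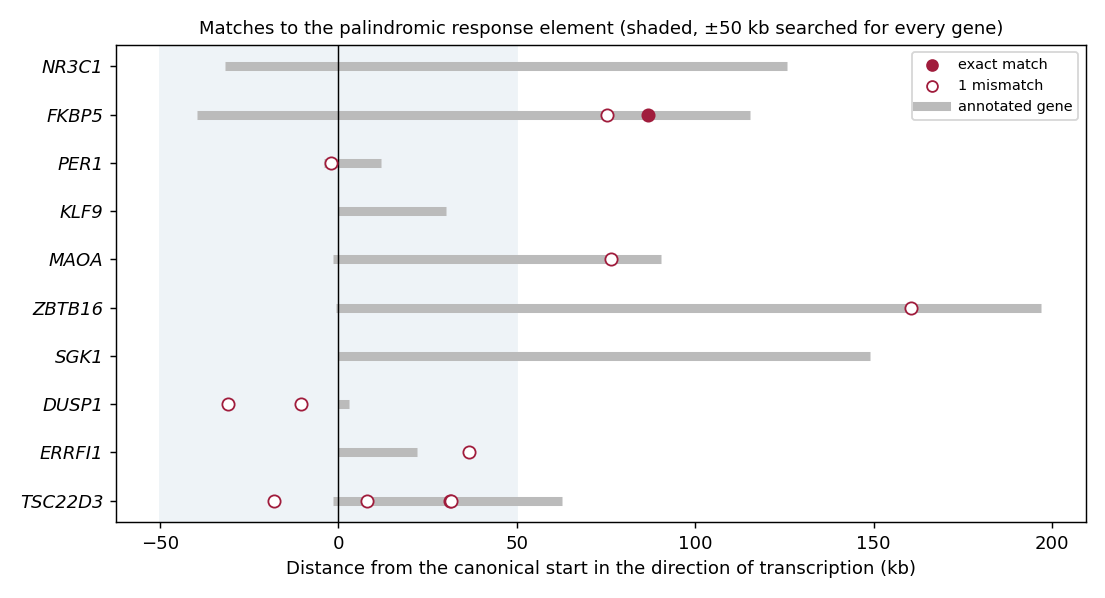
Matches to the receptor palindrome along the 10 genes, as distance in kb from the canonical start in the direction of transcription (horizontal axis), with grey bars for the annotated gene and shading for the 50 kb on either side of the start. The exact match (filled) is in FKBP5, the open circles have 1 mismatch, and NR3C1, KLF9 and SGK1 show none.

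Per kilobase of exon, the order of the 10 genes differed between the lines. In EA.hy926, TSC22D3 (25.3 ± 1.87 CPM per kilobase) and DUSP1 (23.8 ± 0.814) were the highest, and their ranges overlapped. NR3C1 (8.57 ± 0.275) and ERRFI1 (8.07 ± 0.304) overlapped as well, as did SGK1 (4.24 ± 0.196) and FKBP5 (4.09 ± 0.113), followed by KLF9, PER1, MAOA and ZBTB16 with no overlap between neighbours. In HMEC-1, DUSP1 (69.4 ± 7.15 CPM per kilobase) was followed by FKBP5 (38.8 ± 0.242), KLF9 (24.5 ± 1.16), ERRFI1 (20.5 ± 0.707) and SGK1 (13.9 ± 0.981), again without overlap. TSC22D3 (9.56 ± 0.176), PER1 (9.05 ± 0.210) and NR3C1 (9.01 ± 0.160) came next with ranges that overlapped between neighbours, then MAOA (4.67 ± 0.112) and ZBTB16. FKBP5 was therefore below NR3C1 in EA.hy926 and above it in HMEC-1.

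**Figure D3:**
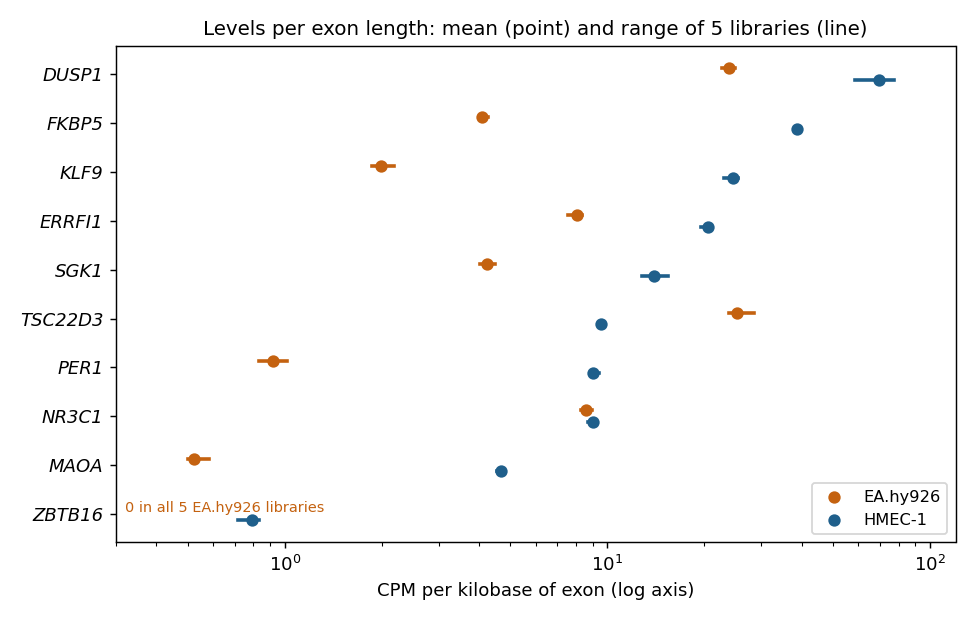
CPM per kilobase of exon (logarithmic horizontal axis) of the 10 genes in EA.hy926 (orange) and HMEC-1 (blue), with points at the mean and lines over the range of the 5 libraries. TSC22D3 is the gene whose orange point lies clearly to the right of the blue one, the points of NR3C1 nearly coincide, and ZBTB16 had no count in EA.hy926.

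A wider list of 30 genes known to be induced by glucocorticoids was mixed. Of the 28 that could be tested, 8 were higher in HMEC-1 and 4 were higher in EA.hy926 past both thresholds. The shares over all tested genes were 16.4% and 19.1%. At an adjusted p under 0.05 from edgeR alone, 13 were higher in HMEC-1 and 14 in EA.hy926, against 43.3% and 42.6% of all tested genes. The median log2FC of the list was 0.14. HIF3A, an inhibitory member of the hypoxia-inducible factor family, had 1103 to 1350 counts in HMEC-1 and 0, 3, 9, 2 and 0 counts in EA.hy926 replicates 1 to 5 (edgeR adjusted p = 3.3e-21). Its mean in EA.hy926, 0.0797 CPM, was under the floor of 3 counts in a library and rested mostly on replicate 3, so no fold is given. KLF15, a regulator of amino acid and lipid metabolism, had no count in EA.hy926 and 12 to 21 per HMEC-1 library, at least 4.88-fold higher (edgeR adjusted p = 2.3e-08). IRS2, an adaptor of the insulin receptor, had 0.317 ± 0.142 and 17.6 ± 1.11 CPM (log2FC = -5.78 ± 0.133 SE, edgeR adjusted p = 4.7e-20). Its counts were 4 to 16 per EA.hy926 library. HIF3A, KLF15 and IRS2 each passed the filter on low counts through HMEC-1 alone, so the filter favoured that direction. DDIT4, an inhibitor of mTORC1 (log2FC = -3.06 ± 0.0506 SE), CEBPD (log2FC = -2.05 ± 0.0716 SE) and GLUL, the glutamine synthetase gene (log2FC = -1.95 ± 0.0308 SE), were named after their values were seen.

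In the other direction, NFKBIA, which encodes the NF-κB inhibitor IκBα, had 138 ± 5.88 CPM in EA.hy926 against 44.9 ± 0.975 in HMEC-1 (log2FC = 1.61 ± 0.0315 SE, edgeR adjusted p = 2.8e-21). The metallothionein gene MT1X was low in both lines, with 22 to 55 and 7 to 14 counts (log2FC = 2.06 ± 0.281 SE, edgeR adjusted p = 7.4e-07), and belongs to a family of near-identical genes among which reads can be split. MT1X passed the filter on low counts through EA.hy926 alone. RGS2, a regulator of G protein signaling, had 3.73 ± 0.380 and 1.29 ± 0.127 CPM (log2FC = 1.53 ± 0.119 SE, edgeR adjusted p = 9.6e-11). THBD lay just past the fold change threshold (log2FC = 1.03 ± 0.0319 SE). The abundant metallothionein gene MT2A lay short of it, with 946 ± 65.5 and 523 ± 37.6 CPM (log2FC = 0.855 ± 0.0456 SE). THBD and MT2A were named after their values were seen. NFKBIA and TSC22D3, which both encode inhibitors of NF-κB, were higher in EA.hy926, but were set together with their values known. DUSP1, whose product also limits inflammation, was higher in HMEC-1 (log2FC = -1.55).

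**Figure D4:**
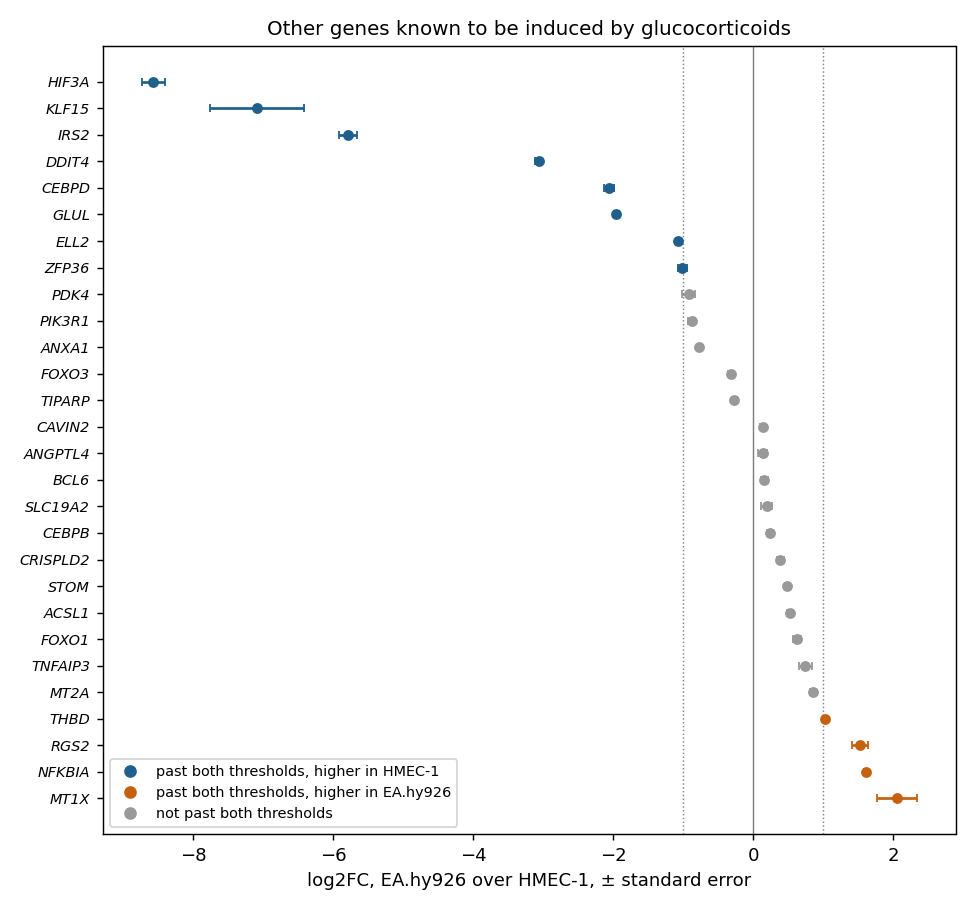
The log2FC (horizontal axis, EA.hy926 over HMEC-1) ± standard error of the 28 tested genes of the wider list of induced targets, one per line. HIF3A, KLF15 and IRS2 lie far to the left (higher in HMEC-1, 8 blue points in all), where the fitted values of HIF3A and KLF15 rest on counts near 0 in EA.hy926, 4 orange points lie past 1 on the right, and 16 grey points did not pass both thresholds.

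Of 17 inflammatory genes known to be repressed by glucocorticoids, 12 could be tested. Past both thresholds, 6 were higher in EA.hy926 and 4 in HMEC-1, against 19.1% and 16.4% of all tested genes. The median log2FC of the list was 1.22. The balance depended on the filter. Without a filter, and without any 1 of the EA.hy926 libraries, it was 6 and 6, and with at least 10 counts in each library it was 3 in EA.hy926 and 4 in HMEC-1. IL1B and VCAM1, which the filter left out, had 1 to 3 and 0 to 1 counts in EA.hy926 against 9 to 21 and 4 to 23 in HMEC-1. The collagenase gene MMP1 had 567 ± 9.09 CPM in EA.hy926 against 3.75 ± 0.272 in HMEC-1 (log2FC = 7.24 ± 0.0382 SE, edgeR adjusted p = 4.5e-30). PTGS2, the inducible cyclooxygenase gene, counted 341 to 469 reads in EA.hy926 against 0 to 4 in HMEC-1 (edgeR adjusted p = 9.5e-19). The chemokine gene CCL2 had 24.5 ± 2.35 and 0.731 ± 0.200 CPM (log2FC = 5.05 ± 0.111 SE, edgeR adjusted p = 2.3e-20). CXCL1 (log2FC = -1.83 ± 0.154 SE), IL6 (log2FC = -1.59 ± 0.224 SE) and LIF (log2FC = -1.34 ± 0.233 SE) were higher in HMEC-1, each under 5 CPM in every library, and so was CXCL8, with 2.51 to 4.74 CPM in EA.hy926 against 6.75 to 11.7 in HMEC-1 (log2FC = -1.24 ± 0.155 SE). The other genes higher in EA.hy926, CSF2, IL1A and CCL5, were also low, with at most 2.47 CPM in any library. CXCL8, CSF2, IL1A and CCL5 were named after their values were seen. PTGS2, CSF2 and IL1A passed the filter on low counts through EA.hy926 alone. The genes E-selectin (SELE) and TNF had at most 1 count in any library.

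Genes of other stimuli that differed between the media did not share 1 direction either. Past both thresholds, 16.4% of all tested genes were higher in HMEC-1 and 19.1% in EA.hy926. Among 14 tested immediate early genes, 4 were higher in HMEC-1 past both thresholds, led by EGR1 (log2FC = -5.39 ± 0.321 SE, edgeR adjusted p = 9.7e-13) and CCN2 (log2FC = -2.48 ± 0.0393 SE, edgeR adjusted p = 8.1e-23), and 1, FOSL1 (log2FC = 1.01 ± 0.0402 SE), was higher in EA.hy926. FOSL1 lay at the threshold, and its call was lost without a filter, with library totals, with glmTreat, and without EA.hy926 replicate 3 or 5 or HMEC-1 replicate 3, 4 or 5. Of 12 genes for the EGF receptor and the feedback of the ERK pathway, 4 were higher in EA.hy926 and 2 in HMEC-1. DUSP4, a paralog of DUSP1 that inactivates ERK, had 386 ± 20.7 CPM in EA.hy926 against 38.5 ± 2.99 in HMEC-1 (log2FC = 3.33 ± 0.0459 SE, edgeR adjusted p = 8.4e-24). ETV4 (log2FC = 3.38) and SPRY4 (log2FC = 2.65) were higher in EA.hy926, and SPRED2 (log2FC = -2.54) and SPRY1 (log2FC = -1.40) in HMEC-1.

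The clock gene PER1 was set beside the other clock genes. Of 15 tested, 5 were higher in HMEC-1 and 2 in EA.hy926 past both thresholds, against 16.4% and 19.1% of all tested genes. The PER1 paralogs PER3 (3.29 ± 0.393 against 16.7 ± 1.44 CPM, log2FC = -2.34 ± 0.0808 SE, edgeR adjusted p = 6.2e-17) and PER2 (1.55 ± 0.162 against 3.81 ± 0.605 CPM, log2FC = -1.29 ± 0.128 SE, edgeR adjusted p = 5.4e-09) were higher in HMEC-1 too. NPAS2, a partner of BMAL1, was higher in EA.hy926 (13.5 ± 1.23 against 0.160 ± 0.0257 CPM, log2FC = 6.38 ± 0.132 SE, edgeR adjusted p = 7.6e-21). With 5 to 8 counts per HMEC-1 library, NPAS2 passed the filter on low counts through EA.hy926 alone, so its direction was settled before the test. RORA, the other clock gene higher in EA.hy926, also passed through that line alone. BHLHE41 and CIART, higher in HMEC-1, passed through HMEC-1 alone. Exons of other genes cover 16.6% of the exonic bases of PER3. Among the remaining paralogs of the 10 genes, KLF13 (log2FC = 0.14), KLF16 (log2FC = 0.37), DUSP5 (log2FC = -0.60) and SGK3 (log2FC = -0.98, with 44% of its exonic bases shared) did not pass the fold change threshold.

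**Figure D5:**
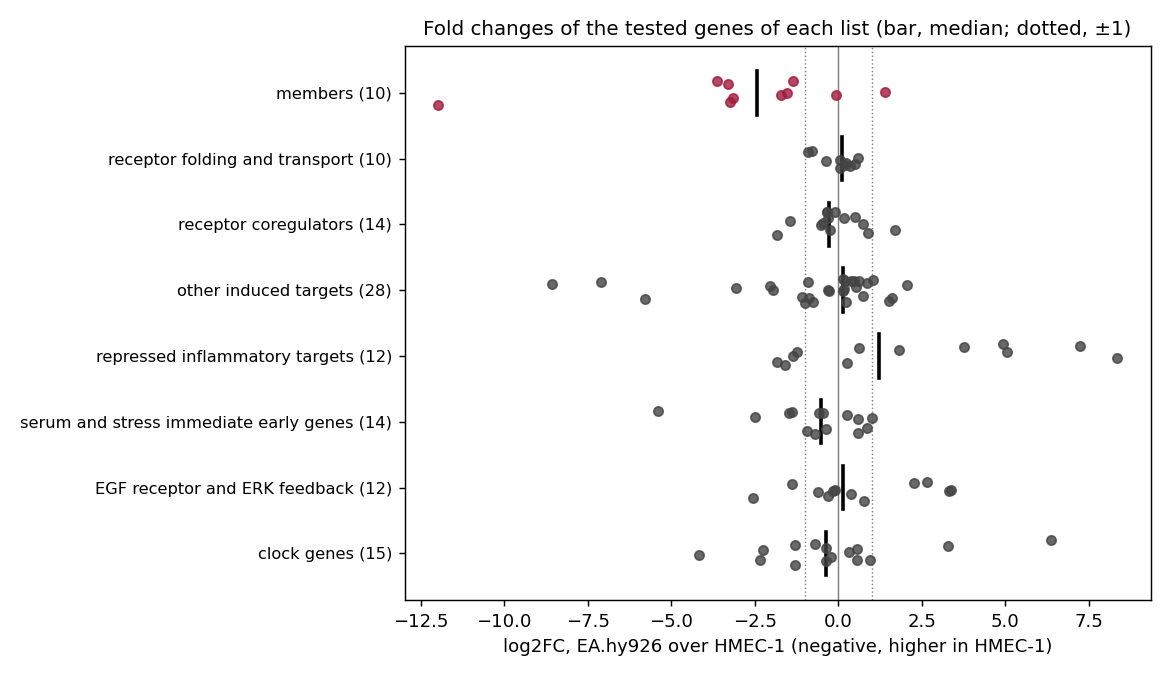
The log2FC (horizontal axis, negative for higher expression in HMEC-1) of the tested genes of each list, with the number tested in brackets, a bar at the median and dotted lines at -1 and 1; the glucocorticoid receptor and its targets are the top row in red. The median of that row is -2.44, and those of the 7 other lists plotted lie between -0.52 and 1.22.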

How the data were processed

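Poly(A) RNA-seq libraries of EA.hy926 and HMEC-1 cells (5 each) were compared. The authors aligned reads to GRCh38 with HISAT2, and the deposited values are raw counts per Ensembl gene, with no normalization. The paper names HTSeq for the counting and the submitters' processing notes name featureCounts. The annotation release and strand setting are not given in the sources used here, so overlapping genes are uncertain. Exons of other genes cover at most 3.71% of the exonic bases of any of the 10 genes.

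The 10 genes and all lists were chosen with earlier results of these data known. Symbols, coordinates and exon lengths came from GENCODE 44, which matched 56434 of 60448 identifiers. In R 4.3.3, edgeR 4.0.16 supplied the low-count filter (filterByExpr, at least 10 counts, total of at least 15), TMM scaling and the quasi-likelihood test, without covariates. A gene under 10 counts in every library of 1 line, such as ZBTB16, KLF15, HIF3A, NPAS2 or PTGS2, passed that filter through the other line alone. So did IRS2, MT1X and RORA, which were under 10 counts in some libraries of the lower line. The paper names limma, and edgeR was used here because the values are counts. Benjamini-Hochberg adjustment covered the 16310 genes tested. The standard error is the absolute log2FC over the square root of F. Exon overlaps used bedtools 2.31.1. The tests were also run on simulated counts in which few genes changed and the dispersion was fixed. In the real libraries 35.5% of the tested genes passed both thresholds, so that run does not check the normalization. A floor of 3 counts was 0.0651 to 0.0904 CPM. The 20 pairs of replicates differed by 3.08 to 7.63 in chi-square per degree of freedom, so no pair agreed within sampling noise.

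Named genes were the 10, up to 3 per direction of each other list with the largest log2FC past both thresholds and at least 10 counts in every library of the higher line, all steroid receptor, cortisol and paralog genes, markers at 0, and the 3 genes nearest to NR3C1 and to FKBP5 in root mean square difference of log2 CPM (prior count 2). Some genes that this rule names are not reported here. Sequences were read from GRCh38 around Ensembl canonical starts, and promoters from RefSeq on GRCh38.p14, where all 10 symbols matched. The alternatives were DESeq2 1.42.0, limma-voom (limma 3.58.1), RLE factors, library totals, no filter, a filter of at least 10 counts in each library, a replicate block, glmTreat against a log2FC of 1, and dropping single libraries.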

Additional observations from a re-analysis of the deposited data

Results flagged for a closer look

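In 3 of the 19 combinations of gene and line with counts, 1 library stood far from the other 4 (gap over range above 0.71), where chance gives about 1 in 20. Over the genes of all lists, 20 of 294 such groups were as uneven. TSC22D3 had 141 CPM in EA.hy926 replicate 1 and 118 to 125 CPM in the others. ERRFI1 had 31.6 CPM in EA.hy926 replicate 2 and 33.9 to 34.8 CPM in the others. MAOA had 7.57 CPM in EA.hy926 replicate 3 and 6.51 to 6.74 CPM in the others. Each of these libraries was on the same side of every HMEC-1 library as the other 4.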

How the results depend on the processing

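The number of the 10 genes past both thresholds was 9 under every alternative but 1, and stayed at 9 with each library left out in turn. Requiring at least 10 counts in every library gave 8, because that filter removes ZBTB16. No log2FC of the 10 genes changed sign. NR3C1 was the only one whose adjusted p moved across 0.05, without EA.hy926 replicate 2, 4 or 5, and its log2FC ran from -0.098 to -0.053 when libraries were dropped singly and was -0.21 with library totals, which shift the log2FC of all genes by a median of -0.135. Tested by glmTreat against a log2FC of 1, NR3C1 had an adjusted p of 1.0. Over all genes, 5784 passed both thresholds, 9312 without a filter and 3255 with at least 10 counts in every library, and 5945 to 6000 with each library left out. Of the lists, receptor folding and transport had 1 gene past both thresholds with library totals (0 with TMM), the cortisol group 2 (1) and the paralogs 8 (4) without a filter, and the clock group 3 (7) under the filter of 10 counts in each library. Other totals of a list moved by at most 1.5 times, but counts in 1 direction moved more. With at least 10 counts in each library, repressed targets higher in EA.hy926 went from 6 to 3, induced targets higher in HMEC-1 from 8 to 5 and clock genes higher in EA.hy926 from 2 to 0. With glmTreat, repressed targets higher in HMEC-1 went from 4 to 2, and without a filter, paralogs higher in HMEC-1 went from 2 to 5. The immediate early count for EA.hy926, FOSL1 alone, fell to 0 under several alternatives. Same-numbered replicates of the lines showed little shared deviation (Pearson r of -0.0722 to 0.145 across 9123 genes, which are not independent). The highest r was that of replicate 2, the only one that matched its own number best. Such values have no reference here and cannot exclude a shared batch. The replicate block gave 9 of the 10 genes and 5786 of all genes past both thresholds.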
